A study of Rattus norvegicus with 26 samples.

Results

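The high and the low dose of Songling Xuemaikang capsule (SXC), a herbal preparation, were compared in the thoracic aorta of male rats of the spontaneously hypertensive strain, which is inbred and inherits high blood pressure. The 12 arrays labelled SXC were taken, 6 of each dose, out of 26 arrays in all. The low dose was 236.25 mg per kg and the high dose 708.75 mg per kg, both given by mouth for 4 weeks, with daily doses starting at 9 and at 12 hours and lights on from 7 to 19 hours. All rats were killed at 28 days with pentobarbital at 60 mg per kg. The rats' age and the hour of killing are not given in the sources used here. Each array carries RNA of 1 rat's aorta, extracted separately per the labels, so the replicates are animals. The question was which genes a dose increase changed when both groups received the same preparation. A whole aorta holds smooth muscle, endothelium, adventitial fibroblasts, nerve fibres, blood cells and surrounding fat, and fewer cells of a type cannot be told apart from less RNA per cell.

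Smooth muscle cells of the aortic media contract when calcium activates myosin light chain kinase, which phosphorylates the regulatory light chain of myosin. The same cells lay down the collagen and elastic fibres that carry the pressure load. They also hold a circadian clock, in which Bmal1 with Clock or Npas2 drives transcription of Per, Cry and Nr1d genes, whose products repress it in turn, and of output factors such as Dbp and Tef. This clock modulates vascular tone and blood pressure over the day.

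Each level is a log2 signal minus the 75th percentile of its array. A difference of 1 is a doubling. Of 30367 probes outside the controls, 21962 passed the background flag on 6 or more SXC arrays and entered the limma test, and an adjusted p under 0.05 is referred to as called. The arrays were scanned on 4 days, numbered here in order of date. Low-dose arrays 1 and 6 and high-dose arrays 1 and 2 were scanned on day 1. Of these, low-dose array 6 and both high-dose arrays have the same scan time and were therefore taken to share a slide. Low-dose arrays 2 to 5 were scanned on day 2, high-dose arrays 3 and 6 on day 3 and high-dose arrays 4 and 5 on day 4. The detector voltage was 323 to 325 V on high-dose arrays 3 to 6 and 353 to 354 V on the others. The share of probes well above background was 70.4 to 77.0% on the low-dose arrays and 72.4 and 79.6% on the high-dose arrays of day 1. It was 28.9, 68.6, 55.3 and 55.9% on high-dose arrays 3, 4, 5 and 6. The first principal component, 57.5% of the variance, ran from -109.3 to -82.2 on the low-dose arrays of day 2, from -40.0 to 2.7 on the day 1 arrays of both doses and from 63.4 to 133.8 on high-dose arrays 3 to 6. Because only day 1 holds both doses, each dose difference is given below over the 12 arrays and again on that shared day, the latter from the same fit with scan day as a block, so that it rests on 2 arrays of each dose.

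Over the 12 arrays 4475 probes (20.4%) were called, 3011 higher (13.7%) and 1464 lower (6.67%) with the high dose, naming 1650 higher and 890 lower genes. Of the 8022 probes well above background on all 12 arrays, 1145 were called lower and 823 higher. Falls were thus commoner among bright probes than over all probes, and rises less common. The median standard error of a difference was 0.26. With scan day as a block 0 probes were called (306, or 1.39%, at an unadjusted p under 0.05), at a median 95% confidence interval half-width of 0.69. With the detector voltage level as a term, which compares high-dose arrays 1 and 2 with the low dose, 0 were called as well (1279, or 5.82%, unadjusted). Of the called probes 2880 (64.4%) had the same sign on the shared day and 1595 the opposite sign. The median difference of the called rises was 1.62 over the 12 arrays and 0 on the shared day, and that of the called falls was -0.54 and -0.17. A difference beyond 1 in either direction was found for 2808 called probes over the 12 arrays and for 54 on the shared day. The calls thus rest mainly on arrays of different scan days, on which dose and scan day cannot be told apart.

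**Figure D1:**
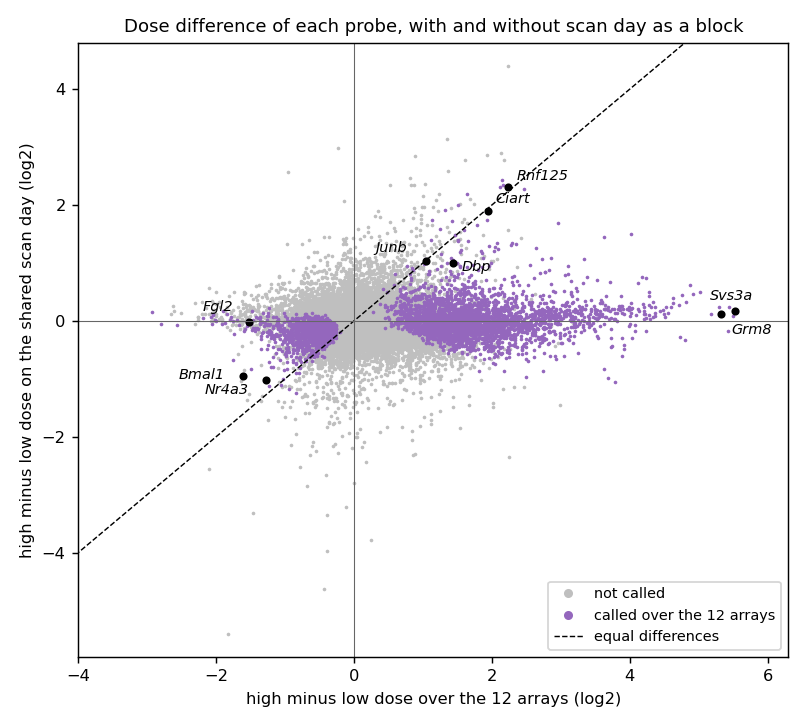
High minus low dose of every tested probe, as a log2 difference over the 12 arrays (horizontal axis) and with scan day as a block (vertical axis). Called probes are purple, and the dashed line marks equal differences. Most called rises spread along the horizontal axis at a shared-day difference near 0, as Grm8 and Svs3a do, while Rnf125, Ciart, Junb and Nr4a3 lie near the dashed line.

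Arrays of a single dose also differed by scan day. Within the high dose, 3275 probes (14.9%) differed between arrays 3 to 6 and arrays 1 and 2, 1252 higher (5.70%) and 2023 lower (9.21%) on arrays 3 to 6. Within the low dose, 1327 probes (6.04%) were lower on day 2 than on day 1 and 0 were higher. Of the 4475 probes called for dose, 1482 were also called between the high-dose scan sets, and all 1482 moved in the same direction in both. This match is favoured in advance, since high-dose arrays 3 to 6 enter both comparisons with the same sign. The call for dose rested on single arrays as well: 0 probes were called without low-dose array 2, 4 or 5 or high-dose array 5, 1 without low-dose array 3, 741 without high-dose array 4, 2269 without high-dose array 3 and 7686 without high-dose array 1. No named gene below kept its call without low-dose array 2, 4 or 5 or high-dose array 5, and 1 kept it without low-dose array 3. The smallest adjusted p of the fit, 0.0206, was shared by 664 probes, so many genes below carry that value. After another scaling, the median difference of all probes moved from 0.01 to 0.29 (normexp), 0.19 (percentile over probes detected on all arrays) or -0.22 (quantile normalisation, and the authors' values), and 67.3, 69.1, 87.7, 58.3 and 54.2% of calls were rises.

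The largest rises of the measured values over the 12 arrays were in genes best known outside the vessel wall. They were Grm8, a metabotropic glutamate receptor, Or8b8, an olfactory receptor, Svs3a, a seminal vesicle secretory protein, Dbndd1, Rph3a, a synaptic vesicle protein, Or2a20, Ly49i2, a natural killer cell receptor, Frmpd4, a postsynaptic scaffold, Sox2, a factor of stem and neural progenitor cells, Hsf2bp, a meiotic protein, Or6c3d and Lrfn2, a synaptic adhesion molecule. Grm8 lay between -7.53 and -6.35 on the low-dose arrays of day 2, at -2.39 and -2.07 on those of day 1, at -2.47 and -1.65 on the high-dose arrays of day 1, and between 0.17 and 2.02 on high-dose arrays 3 to 6. The day 1 arrays of both doses thus stood together between the other arrays, and the doses overlapped there. Grm8 was well above background on 3 of the 6 low-dose arrays, so the low level is known only in part. The difference of the measured values over the 12 arrays was 5.52 ± 1.11 (SE; means 0.09 ± 1.81 and -5.43 ± 2.51, SD, n = 6 each; adjusted p = 0.0206). With each level under an array's lowest signal well above background raised to that signal, it was 5.21 ± 0.99, and it was 0.17 on the shared day (95% interval -0.69 to 1.04).

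Svs3a ran from -8.92 to -6.30 on the low-dose arrays of day 2, and stood at -1.70 and -1.51 on the low-dose and -1.88 and -1.11 on the high-dose arrays of day 1, against -0.19 to 0.89 on high-dose arrays 3 to 6. Rph3a ran from -4.72 to -4.04 on day 2, from -0.36 to 0.68 on the 4 arrays of day 1 and from 2.20 to 3.15 on high-dose arrays 3 to 6. Lrfn2 followed the same order, with -3.31 to -2.86, 0.18 to 1.09 and 3.21 to 3.82. In each of these genes the low dose of day 2 was lowest, day 1 was intermediate whatever the dose, and high-dose arrays 3 to 6 were highest. Their differences over the 12 arrays were 5.32 ± 1.19, 4.82 ± 0.92 and 4.44 ± 0.85, and those on the shared day 0.11, 0.33 and 0.17. The 12 leading rises spanned 4.44 to 5.52 over the 12 arrays and -0.33 (Or2a20) to 0.44 (Ly49i2) on the shared day. On the 6 valsartan arrays, all scanned at the lower detector voltage, Grm8 lay between -1.71 and 1.22, Svs3a between -0.73 and 1.13 and Lrfn2 between 2.30 and 3.02. On the low-dose arrays Grm8, Svs3a and Dbndd1 were well above background on 3 arrays and Or8b8 on 2, so their order by size is uncertain. With levels raised as for Grm8, Dbndd1, Svs3a and Or8b8 differed by 4.93, 4.71 and 4.59. Hsf2bp was read by probes that disagreed in size, from 1.06 to 4.49.

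The largest falls were smaller. They were led by Tcf21, a transcription factor of adventitial fibroblasts (-1.76), Fbxo9, a ubiquitin ligase subunit (-1.74), Bmal1 (-1.61), Fgl2, a fibrinogen-like prothrombinase (-1.52), Slc22a2, an organic cation transporter (-1.35), Caprin1, an RNA-binding protein of stress granules (-1.34), Nr4a3, an orphan nuclear receptor (-1.28), Rtn4rl1, a Nogo receptor relative (-1.27), Spon1, a matrix protein (-1.23), Hoxb7 (-1.22), Tspan5, a tetraspanin (-1.18) and C2cd5, which takes part in glucose transporter traffic (-1.17). Fbxo9 lay between -0.14 and 0.07 on the low-dose arrays, at -0.44 and -0.10 on the high-dose arrays of day 1 and between -3.24 and -1.75 on high-dose arrays 3 to 6. Fgl2 lay between -0.64 and -0.37 with the low dose, at -0.43 and -0.64 on the high-dose arrays of day 1 and between -3.54 and -1.88 on arrays 3 to 6. Both falls were therefore seen on high-dose arrays 3 to 6 alone, with shared-day differences of -0.23 (95% interval -0.62 to 0.16) and -0.02 (-0.46 to 0.41). High-dose array 3 was not well above background for either gene. Caprin1 behaved alike (0.34 to 0.74 on the low-dose arrays and the high-dose arrays of day 1, -2.37 to -1.05 on arrays 3 to 6), and its other probes gave differences of up to 0.04. Tcf21 was well above background on 2 high-dose arrays, and its shared-day difference was -0.67. With levels raised to the lowest signal well above background (the background floor), the fall of Tcf21 was -0.32 (adjusted p = 0.65), and Fgl2 (0.0565), Slc22a2 (0.0667), Rtn4rl1 (0.0504) and Hoxb7 (0.0667) also lost the call. Probes for Rtn4rl1 disagreed in sign (-1.27 to 1.54). Bmal1 and Nr4a3 are described below.

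**Figure D2:**
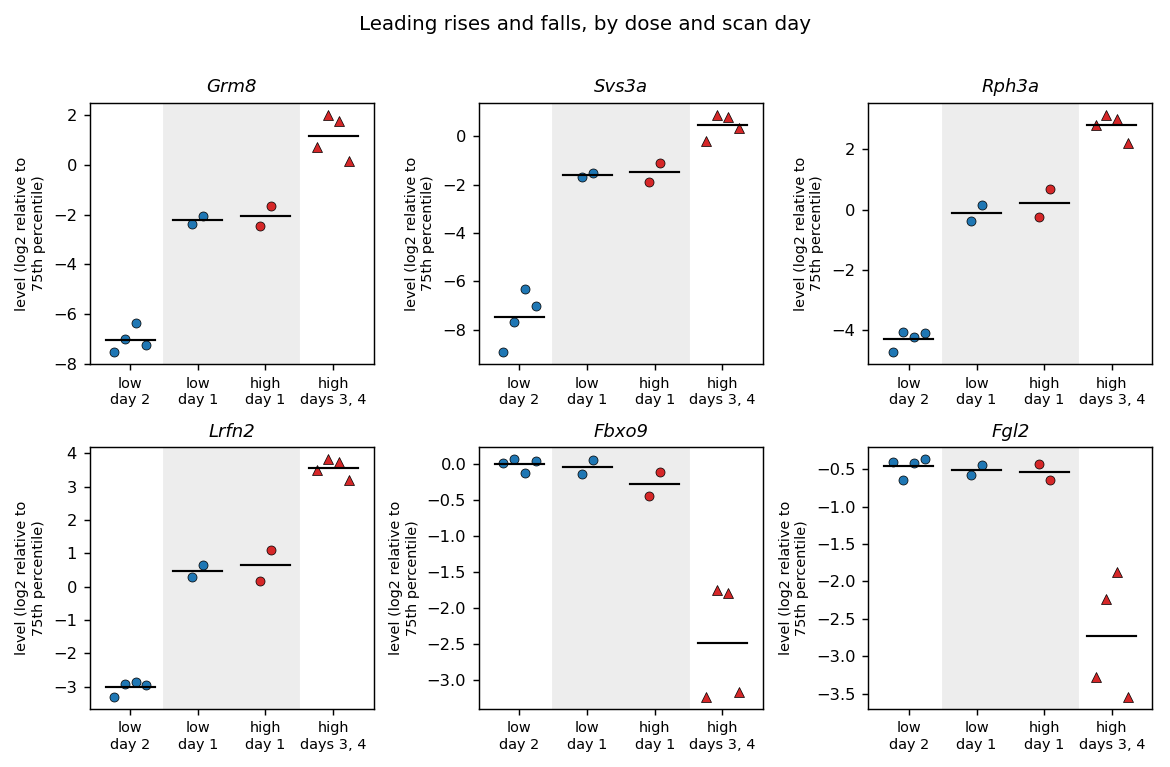
Level of 6 leading genes on each array (log2 relative to the array's 75th percentile), split by dose and scan day. Blue is the low dose, red the high dose, circles the higher and triangles the lower detector voltage, bars the mean of a set, and grey marks the shared day. Levels of both doses coincide on the shared day, and the difference between doses lies in the outer sets.

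Among the clock genes, those called were lower where they are activators and higher where they are repressors or outputs. With scan day as a block none of them was called. Of 19 clock genes tested, 7 were higher and 2 lower with the high dose, against 13.1% higher and 7.51% lower over all 11425 named genes (1 probe each). Of the 9, 8 kept their sign on the shared day, Per1 being the exception. Of all called probes, 64.4% kept theirs. Such a match is favoured in advance, since the shared-day arrays also enter the fit that made the calls. At an unadjusted p under 0.05, 6 of the 19 (31.6%) differed on the shared day, against 1.69% of all genes. None of the 19 was called between the high-dose scan sets, where 645 of the 11425 genes were higher and 697 lower. For a list of 19, 0 calls is near those shares. In groups, 5 of 9 repressors were higher (median 0.59, and 0.30 on the shared day), 2 of 4 activators lower (-0.87 and -0.77) and 2 of 6 output genes higher (0.35 and 0.34), while the median of all genes was -0.03 and -0.05. By quantile normalisation, and in the authors' values, 1 repressor (Ciart) and 1 output gene (Dbp) were called, and Nr1d1 (adjusted p = 0.096 by quantile normalisation), Bhlhe40 (0.0777), Per1 (0.13) and Tef (0.0559) lost the call. The hour of killing and its order among the groups were not available here, and their part in these differences was not tested.

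Among the activators, Bmal1, the partner that both Clock and Npas2 need, lay at -0.78, -0.22 and 0.07 (lowest, median, highest) with the low dose and at -3.91, -1.74 and -0.93 with the high dose. The doses did not overlap over the 12 arrays, where 4.12% of all probes did not (1.27% were higher and 2.84% lower with the high dose). Its difference was -1.61 ± 0.41 (3.05-fold lower; adjusted p = 0.0243). On the shared day, -0.38 and -0.14 with the low dose stood against -0.93 and -1.50 with the high dose, a difference of -0.95 (95% interval -2.13 to 0.22). High-dose array 4 was the lowest, and array 3 was not well above background. A second probe for Bmal1 gave -1.23. Npas2 lay at 0.03, 0.54 and 0.77 with the low dose and at -0.88, -0.17 and 0.21 with the high dose, a difference of -0.74 ± 0.19 (adjusted p = 0.0256). The doses overlapped slightly over the 12 arrays and not on the shared day, where the difference was -0.58 (95% interval -1.12 to -0.04). A dimmer Npas2 probe gave 0.22. Clock (0.26 ± 0.19) and Nfil3, a repressor of output genes that the list also holds (-1.0 ± 0.38, adjusted p = 0.071), did not pass.

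Among the repressors, Ciart, a protein that inhibits the Bmal1 complex, showed the clearest separation. It lay at -3.91, -2.87 and -2.25 with the low dose and at -1.60, -1.02 and 0.23 with the high dose, with no overlap. The difference was 1.94 ± 0.34 (3.84-fold; adjusted p = 0.0206), and 1.90 on the shared day (95% interval 0.78 to 3.02), where -3.00 and -2.83 stood against -0.71 and -1.31. Nr1d1, the nuclear receptor that represses Bmal1, lay at -3.85, -3.59 and -2.51 with the low dose and at -2.85, -2.30 and -1.49 with the high dose, a difference of 1.14 ± 0.31 (adjusted p = 0.0291). Its doses overlapped on the shared day (-3.44 and -2.51 against -2.61 and -2.85), with a difference of 0.25. Its relative Nr1d2 rose by 0.59 ± 0.19 over the 12 arrays (adjusted p = 0.0469) and 0.80 on the shared day, but by quantile normalisation and in the authors' values its sign turned (-0.48 and -0.32). Bhlhe40 (1.83 ± 0.54, and 0.30 on the shared day) and Per1 (1.06 ± 0.34, and -0.11) were higher over the 12 arrays without a matching shared-day difference. Per2 was the reverse: 0.35 ± 0.12 over the 12 arrays (adjusted p = 0.0545), and 0.56 on the shared day (95% interval 0.18 to 0.94), where -0.03 and 0.06 stood against 0.60 and 0.54. Per3 (0.07 ± 0.32), Cry1 (-0.56 ± 0.19, adjusted p = 0.0525) and Cry2 (0.28 ± 0.19) did not pass.

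Among the outputs, Dbp, a transcription factor whose RNA cycles strongly, lay at 1.67, 2.27 and 2.76 with the low dose and at 3.20, 3.38 and 4.87 with the high dose. No high-dose array fell below a low-dose array. The difference was 1.43 ± 0.28 (2.69-fold; adjusted p = 0.0206), 3 probes gave 1.26 to 1.49, and the shared-day difference was 0.99 (95% interval 0.18 to 1.79), from 2.58 and 1.90 against 3.24 and 3.20. Its relative Tef lay at -1.57, -1.30 and -1.07 with the low dose and at -0.93, -0.49 and 0.04 with the high dose, again with no overlap. The difference was 0.84 ± 0.17 (adjusted p = 0.0206), and 0.91 on the shared day (95% interval 0.29 to 1.53). Wee1, a cell cycle kinase driven by the clock (0.44 ± 0.18), Usp2, a deubiquitinase (0.26 ± 0.17), Tsc22d3, a glucocorticoid-induced factor (-0.16 ± 0.24), and Lonrf3 (0.15 ± 0.32) did not pass. On the shared day the differences of Ciart, Dbp, Tef, Per2, Bmal1 and Npas2 kept their signs under every scaling tried (Ciart 1.50 to 2.15, Dbp 0.98 to 1.04, Tef 0.81 to 1.00, Per2 0.53 to 0.62, Bmal1 -1.01 to -0.88, Npas2 -0.58 to -0.52).

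**Figure D3:**
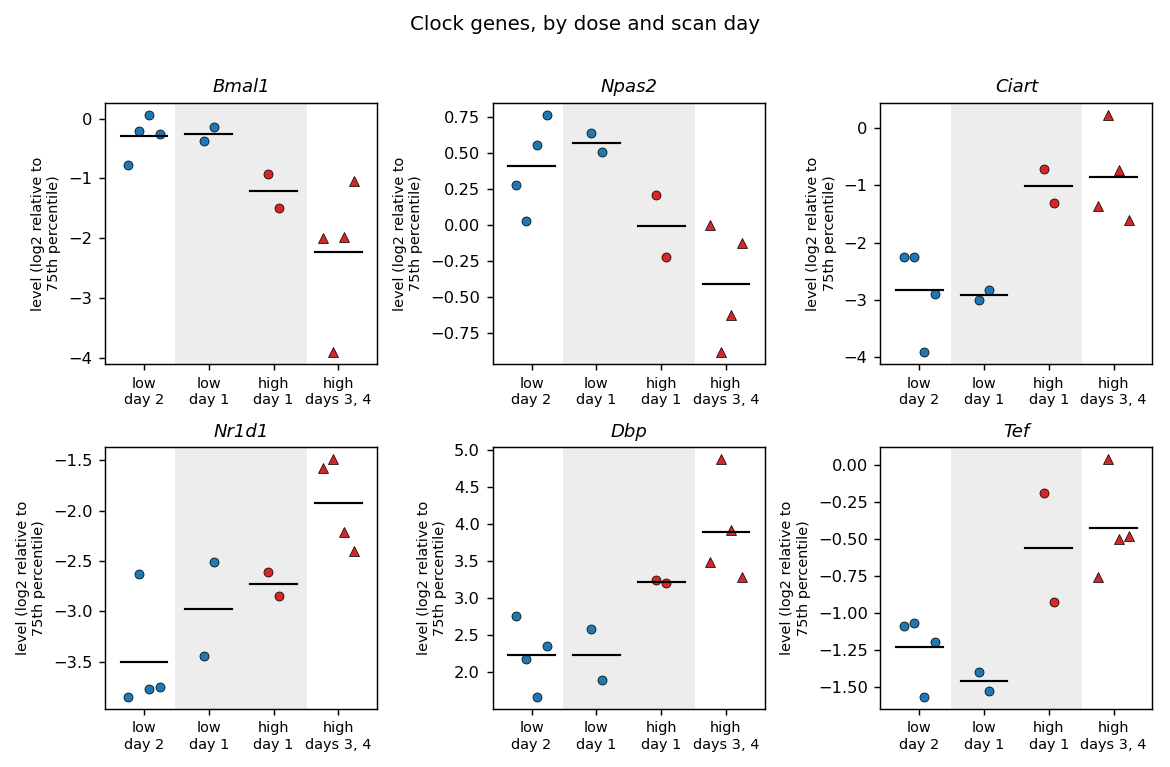
Level of 6 clock genes on each array (log2 relative to the array's 75th percentile), split by dose and scan day. Blue is the low dose, red the high dose, circles the higher and triangles the lower detector voltage, bars the mean of a set, and grey marks the shared day. Within the grey band the 2 high-dose arrays lay below the low-dose arrays for Bmal1 and Npas2 and above them for Ciart, Dbp and Tef, while Nr1d1 of both doses overlapped.

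The clock genes whose 12 arrays did not overlap between doses were Ciart, Tef, Dbp and Bmal1, and their promoters are shown because Bmal1 with Clock binds the E-box CACGTG. The sequences are from RefSeq (GRCr8), run from 250 bases before to 50 after the annotated start in the direction of the gene, and the palindromic E-box, which reads the same on both strands, is in capitals. Ciart lies at chr2:186112197-186112496 (minus strand), Tef at chr7:115206577-115206876 (plus strand), Dbp at chr1:105312006-105312305 (plus strand) and Bmal1 at chr1:176766078-176766377 (plus strand).
Ciart: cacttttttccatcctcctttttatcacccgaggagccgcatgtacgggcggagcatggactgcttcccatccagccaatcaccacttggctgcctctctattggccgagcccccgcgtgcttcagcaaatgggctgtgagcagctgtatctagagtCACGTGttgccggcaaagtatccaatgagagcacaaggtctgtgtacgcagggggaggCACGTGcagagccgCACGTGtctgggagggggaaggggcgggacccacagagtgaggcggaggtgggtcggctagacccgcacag
Tef: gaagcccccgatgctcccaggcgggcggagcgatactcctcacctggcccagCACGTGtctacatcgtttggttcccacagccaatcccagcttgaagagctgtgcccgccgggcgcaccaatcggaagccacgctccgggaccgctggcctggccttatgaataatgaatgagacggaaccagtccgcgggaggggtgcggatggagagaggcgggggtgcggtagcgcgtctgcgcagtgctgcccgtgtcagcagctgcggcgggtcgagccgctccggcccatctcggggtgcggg
Dbp: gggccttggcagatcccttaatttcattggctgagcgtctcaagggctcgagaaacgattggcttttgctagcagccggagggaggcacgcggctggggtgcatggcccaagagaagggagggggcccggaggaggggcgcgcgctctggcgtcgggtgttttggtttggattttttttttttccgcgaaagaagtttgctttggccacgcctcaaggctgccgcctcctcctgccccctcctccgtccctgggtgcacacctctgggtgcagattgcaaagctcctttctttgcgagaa
Bmal1: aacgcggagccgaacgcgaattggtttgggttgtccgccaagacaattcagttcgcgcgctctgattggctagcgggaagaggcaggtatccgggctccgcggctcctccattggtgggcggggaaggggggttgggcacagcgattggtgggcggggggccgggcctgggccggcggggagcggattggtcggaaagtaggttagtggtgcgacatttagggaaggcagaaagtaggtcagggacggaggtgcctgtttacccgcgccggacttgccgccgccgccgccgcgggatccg
The Ciart promoter held 3 E-boxes, from 93 to 21 bases before the start, and the Tef promoter 1, at 198 bases before it. These letters were not in the Dbp and Bmal1 windows. An E-box was found in 6 of 23 promoters of the clock lists (26.1%), which also include Bhlhe40, Bhlhe41, Lonrf3 and 1 of 2 Nr1d1 promoters, and in 2148 of 33469 promoters of the same length (6.42%). A match is a description of the letters, not of binding.

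Among immediate early genes, which respond within minutes to stretch, hormones and growth factors, 3 of 23 were higher (13%; Junb, Klf2 and Ier3) and 1 lower (4.35%; Nr4a3), shares near or below the 13.1% and 7.51% of all genes, with a list median of 0.12 over the 12 arrays and 0.32 on the shared day. Junb, a subunit of the AP-1 factor, lay at 4.49, 4.62 and 5.50 with the low dose and at 5.52, 5.88 and 6.04 with the high dose. The lowest high-dose array was just above the highest low-dose array. The difference was 1.04 ± 0.16 (2.06-fold; adjusted p = 0.0206), and 1.03 on the shared day (95% interval 0.38 to 1.68), from 4.49 and 4.89 against 5.92 and 5.52. Klf2, a flow-responsive endothelial factor, lay at -3.00, -2.86 and -1.97 with the low dose and at -2.15, -1.80 and -1.53 with the high dose. Its difference was 0.81 ± 0.20 (adjusted p = 0.0239), and 0.80 on the shared day (95% interval 0.07 to 1.53), where the doses did not overlap. Ier3, a stress-response gene, differed by 0.86 ± 0.26 and by 0.88 on the shared day (-0.17 to 1.94). Fos spread widely within each dose, from -2.19 to 0.49 with the low and from -0.59 to 2.21 with the high dose, and did not pass (1.64 ± 0.58, adjusted p = 0.0603). Egr1 did not pass either (1.01 ± 0.58).

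Nr4a3 went the other way. It lay at 3.94, 4.36 and 5.07 with the low dose and at 2.06, 3.28 and 4.02 with the high dose, a difference of -1.28 ± 0.33 (adjusted p = 0.0257). High-dose array 2 (4.02) lay above low-dose array 4 (3.94) and just under low-dose array 6 (4.02 after rounding), and the shared-day difference was -1.02 (95% interval -2.33 to 0.29). Of 20 glucocorticoid targets 3 were higher (Mt1, Per1 and Hif3a) and 1 lower (Nr3c1, the receptor itself), with medians of 0.17 and 0.30. These shares, 15% and 5%, were near the 13.1% and 7.51% of all genes. Mt1, a metallothionein, differed by 0.47 ± 0.14 and by 0.50 on the shared day, whereas Hif3a (1.38 ± 0.46, and -0.20) and Nr3c1 (-0.52 ± 0.15, and 0.02) had no shared-day difference of that sign.

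Further genes had differences of similar size in both comparisons. These were taken by rule, as called genes whose day 1 arrays did not overlap between doses, in order of the shared-day difference, so the shared-day values of the 16 genes are a description. Nr4a3 met this rule by a gap that vanishes on rounding. Over all probes, the day 1 arrays of the high dose lay above those of the low dose in 10.6% and below them in 16.8%. Rnf125, a ubiquitin ligase, lay at -3.24, -2.20 and -1.29 with the low dose and at -0.92, -0.24 and 1.46 with the high dose (2.23 ± 0.39, and 2.31 on the shared day). Depp1, a target of FOXO factors, differed by 1.13 ± 0.35 and 1.74, Dusp6, the phosphatase that inactivates ERK, by 0.76 ± 0.18 and 0.95, and Cd300lg, an adhesion receptor of capillary endothelium, by 1.54 ± 0.26 and 0.94. Junb, Dbp and Tef were among these genes. Met, the receptor of hepatocyte growth factor, was chosen too, but its difference fell from 3.06 ± 0.51 to 0.79, and it was called between the high-dose scan sets (2.24).

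Falls of like size in both were led by Rrad, a small GTPase that restrains calcium channels (-0.94 ± 0.31, and -1.18), Hoxa7 (-1.06 ± 0.24, and -1.11), Nr4a3, Rgs4, which shortens signalling of G-protein-coupled receptors (-1.03 ± 0.33, and -1.01), Bmal1, Bcl6, a transcriptional repressor (-1.02 ± 0.19, and -0.85), Hsp90ab1, a cytosolic chaperone (-0.79 ± 0.20, and -0.81), and Bsg, a membrane glycoprotein that escorts lactate carriers (-0.84 ± 0.15, and -0.75). With levels raised to the background floor, Bsg differed by -0.67 over the 12 arrays. Bcl6 lay at 2.18, 2.55 and 3.09 with the low dose and at 1.08, 1.59 and 1.94 with the high dose. Hoxa7 lay at 0.34, 0.80 and 1.76 with the low dose and at -0.36, -0.14 and 0.26 with the high dose. Neither gene overlapped between doses, and neither was called between the high-dose scan sets (-0.19 and 0.05). Rrad lay between -2.03 and -1.55 on 5 high-dose arrays and at -0.02 on array 3, above every low-dose array (-0.93 to -0.14). Over all called probes, 113 (2.53%), 39 higher and 74 lower, had the same sign and an unadjusted p under 0.05 on the shared day, a threshold that 0.583% of all probes passed as rises and 0.81% as falls. They named 84 genes. Levels of 79 of these 113 probes did not overlap over the 12 arrays, against 800 of the 4475 called and 4.12% of all probes. The selection itself favours this, since the day 1 arrays are among the 12. Also called between the high-dose scan sets were 11 of the 113, against 1482 of the 4475 called and 14.9% of all probes. Selection on day 1 works against such a call, since high-dose arrays 1 and 2 enter both comparisons with opposite signs. The low share is therefore no separate evidence.

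**Figure D4:**
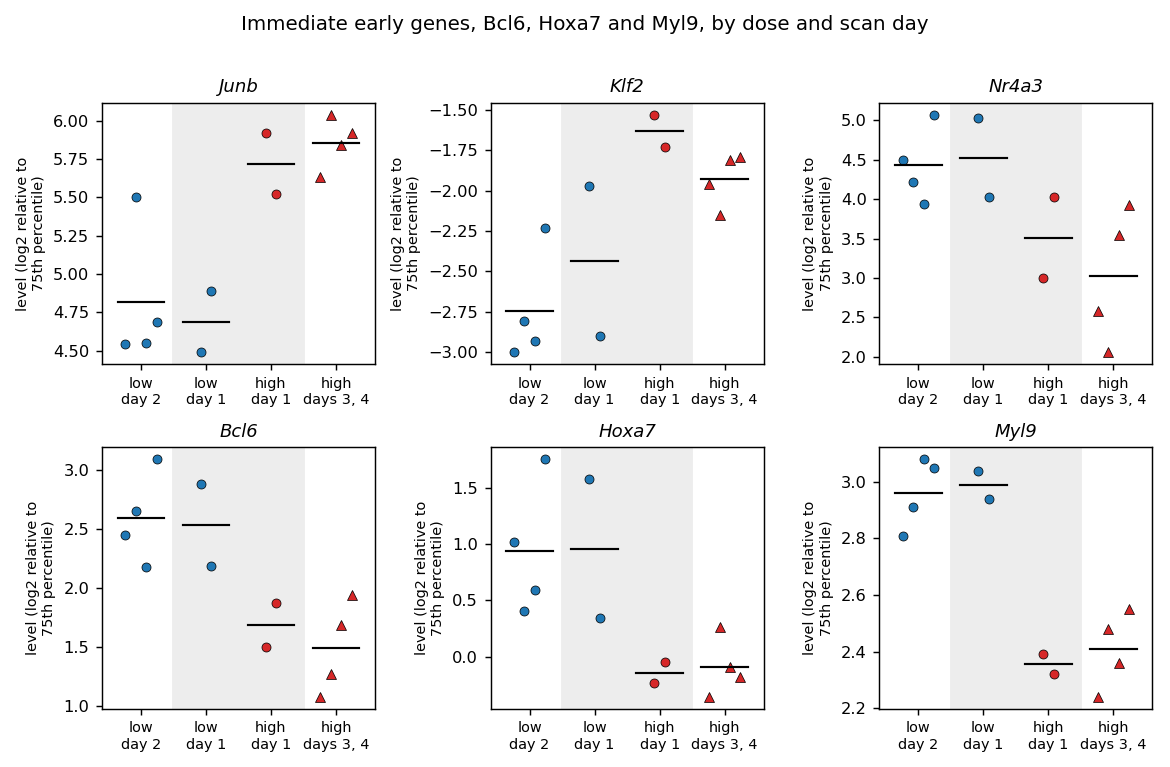
Level of 6 genes on each array (log2 relative to the array's 75th percentile), split by dose and scan day. Blue is the low dose, red the high dose, circles the higher and triangles the lower detector voltage, bars the mean of a set, and grey marks the shared day. In each panel the means differ within the grey band about as much as between the outer sets. Nr4a3 is the least separated there, with 1 low-dose array at the level of 1 high-dose array (4.02 each).

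In the contractile apparatus of smooth muscle, whose 16 measured marker genes were all well above background on 11 of the 12 arrays and 15 of them on high-dose array 3, 4 genes were lower (Myl9, Acta2, Mylk and Itga8) and 0 higher. The share lower was 25%, against 7.51% of all genes, and the list's median was -0.35 over the 12 arrays and -0.15 on the shared day. The 7.51% understates the share for a bright list, since 1145 of the 8022 probes well above background on all arrays were lower. Myl9, the regulatory light chain of smooth muscle myosin, lay at 2.81, 2.99 and 3.08 with the low dose and at 2.24, 2.38 and 2.55 with the high dose. All 6 high-dose arrays, of 3 scan days, were below all 6 low-dose arrays. The difference was -0.58 ± 0.09 (1.49-fold lower; adjusted p = 0.0206), -0.63 on the shared day (95% interval -0.96 to -0.30), and 0.05 between the high-dose scan sets. Acta2, smooth muscle actin, lay at 5.63, 6.12 and 6.21 with the low dose and at 4.76, 5.16 and 5.82 with the high dose (-0.78 ± 0.18, adjusted p = 0.0206). On the shared day Acta2 differed by -0.34 (95% interval -0.77 to 0.09), and high-dose arrays 3 to 6 were lower than 1 and 2 by 0.73. Mylk, the kinase that acts on Myl9, differed by -0.45 ± 0.13, and by -0.12 on the shared day, and a second probe gave 0.11. Itga8, an integrin chain, differed by -0.43 ± 0.14 and -0.03. Myh11, the heavy chain of smooth muscle myosin, did not pass (-0.18 ± 0.12). By quantile normalisation the list's median, -0.20, was close to that of all probes (-0.22), and 2 genes were lower.

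Some matrix genes were lower by small amounts, and most of these calls depended on the scaling. Of 10 collagen genes 5 were lower (50%, against 7.51% of all genes) and 0 higher (median -0.37, and -0.22 on the shared day). For bright lists such as the matrix genes 7.51% is too low a comparison. Of the 8022 probes well above background on all arrays, 1145 were lower. Col6a2 lay at 3.60, 3.62 and 3.73 with the low dose and at 2.81, 3.23 and 3.47 with the high dose, without overlap (-0.43 ± 0.10, adjusted p = 0.0222), and differed by -0.35 on the shared day (95% interval -0.67 to -0.03). Col14a1 (-0.66 ± 0.17, and -0.27), Col4a1 of the basement membrane (-0.35 ± 0.10, and -0.21), Col5a1 (-0.49 ± 0.15, and -0.24) and Col1a1, the main fibrillar collagen (-0.39 ± 0.13, and -0.13), followed. Of 19 genes of elastic fibres 4 were lower (21.1%) and 1 higher (5.26%), with medians of -0.24 and -0.14. Eln, elastin, differed by -0.36 ± 0.12 and -0.22, Emilin1 by -0.47 ± 0.14 and -0.40, Ltbp3, which stores TGF-beta in the matrix, by -0.47 ± 0.13 and -0.36, and Efemp1 by -0.88 ± 0.27 and -0.50. Other Emilin1 probes reached 2.06. Fbn2, an embryonic fibrillin, was higher by 2.19 ± 0.54, and by 0.19 on the shared day. By quantile normalisation the collagen median was -0.22, the same as that of all probes. By that scaling, by the percentile over probes detected on all arrays and in the authors' values, 1 collagen gene was lower, and 0 elastic fibre genes were lower and 1 higher. With levels raised to the background floor, Tgfb2 (-0.37), Col1a1 (-0.39) and Eln (-0.36) lost the call, and Efemp1 kept it at -0.62. In TGF-beta signalling Bmp2 (-0.80 ± 0.20, and -0.64) and Tgfb2 (-0.74 ± 0.23, and -0.05) were lower and Tgfbr2 higher (1.64 ± 0.37, and -0.08), of 18 genes (11.1% lower and 5.56% higher).

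Signalling to the contractile apparatus was mixed. In calcium entry and stores, 5 of 16 genes were lower (31.2%) and 2 higher (12.5%), with medians of -0.19 and, on the shared day, -0.16. Over all genes 7.51% were lower and 13.1% higher. Of the 8022 probes well above background on all 12 arrays, 1145 were lower and 823 higher. Itpr1, the calcium release channel opened by inositol trisphosphate, lay at 5.73, 5.80 and 5.93 with the low dose and at 4.88, 5.29 and 5.55 with the high dose, without overlap. Its difference was -0.55 ± 0.11 (adjusted p = 0.0206), and -0.28 on the shared day (95% interval -0.57 to 0.02), and a dimmer probe gave -0.02. Cacna1c, the L-type channel (-0.61 ± 0.16, and -0.15), Trpc1 (-0.53 ± 0.14, and -0.17), Stim1, the sensor of empty stores (-0.47 ± 0.13, and -0.14), and Atp2a2, the store's calcium pump (-0.43 ± 0.12, and -0.22), were lower. Cacna1g, a T-type channel, stood at -3.82 to -3.52 on the low-dose arrays of day 2, 0.40 to 1.11 on the day 1 arrays of both doses and 1.11 to 2.38 on high-dose arrays 3 to 6 (3.74 ± 0.82, and 0.20). Atp2a3 was higher as well (0.65 ± 0.20, and 0.03).

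Of 14 potassium channel genes 3 were higher (21.4%) and 1 lower (7.14%), against 13.1% and 7.51% of all genes (median -0.05, and -0.10). Kcnab1, a subunit that modulates voltage-gated channels, lay at 2.25, 2.34 and 2.41 with the low dose and at 1.43, 1.61 and 2.07 with the high dose, without overlap. It differed by -0.64 ± 0.12 over the 12 arrays and by -0.28 on the shared day. Kcnj11 (3.38 ± 0.83), a pore of ATP-sensitive channels, Kcnma1 (1.76 ± 0.50), the large-conductance calcium-activated channel, and Kcnk3 (0.75 ± 0.21) were higher over the 12 arrays. On the shared day they differed by -0.04, -0.17 and -0.01, the opposite sign. All 3 were also called between the high-dose scan sets.

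In nitric oxide and cGMP signalling 3 of 16 genes were lower (18.8%) and 1 higher (6.25%), against 7.51% and 13.1% of all genes (median -0.09, and -0.08). Gucy1a1, a subunit of the nitric oxide receptor (-0.58 ± 0.14, and -0.31), Cav1, which binds and inhibits the endothelial synthase (-0.36 ± 0.10, and -0.15), and Ddah1, which degrades inhibitors of the synthase (-0.47 ± 0.14, and -0.49), were lower. Npr2, a receptor of natriuretic peptide, was higher (1.38 ± 0.34, and -0.03). The synthase Nos3 did not pass (0.83 ± 0.33, adjusted p = 0.0845). In the adrenergic list Grk2, the kinase that desensitises the receptors (3.89 ± 0.73, and 0.25), Arrb1 (1.06 ± 0.30, and -0.07) and Adra1a (1.55 ± 0.48, and -0.40) were higher, 3 of 9 (33.3%). Ednra, the receptor of the constrictor endothelin, was lower (-0.98 ± 0.29, and -0.40). With levels raised to the background floor it differed by -0.61 and was not called. Edn1 itself did not pass (-0.13 ± 0.50). Its values on 4 arrays were under the floor, and with these raised the difference was 1.16 ± 0.56, also not called. The sign for Edn1 is therefore not known.

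None of 11 genes of the renin-angiotensin system was called, against 20.4% of all probes, and their median was 0.01. This depended on the scaling. After normexp 1 was higher (median 0.34), and with the percentile over probes detected on all arrays 2 were (0.19). By quantile normalisation and in the authors' values 0 were called, with medians of -0.38 and -0.40. Agtr1a, the main receptor of angiotensin II in the rat vessel, lay at -2.12 to -1.35 with the low dose and at -3.29 to -1.79 with the high dose, with overlap (-0.54 ± 0.24, adjusted p = 0.12). Its lowest value, on high-dose array 3, was under that array's background floor. With levels raised to the floor Agtr1a differed by -0.18 ± 0.22. Its duplicate Agtr1b (0.35 ± 0.21), Agt, the precursor (-0.09 ± 0.38), and Ace, the converting enzyme (0.58 ± 0.21, adjusted p = 0.0692), did not pass. On the shared day these 4 genes differed by -0.08 (95% interval -0.84 to 0.69), 0.02 (-0.47 to 0.50), 0.23 (-1.30 to 1.77) and -0.18 (-0.57 to 0.21).

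Markers of other cell types also moved with the groups. Of 16 macrophage markers 3 were lower (Lyz2, Aif1 and Ctss), 0 higher and 13 did not pass, with a list median of -0.06. The share lower was 18.8%, against 7.51% of all genes, and after normexp 2 markers were higher and 3 lower. The mean level of the markers overlapped between doses (-2.52 to -2.02 with the low and -2.44 to -2.08 with the high dose). The summed signal of the 19 markers on the array, relative to the 75th percentile, was 47.1 to 60.3 on the low-dose and 19.9 to 42.7 on the high-dose arrays. On day 1 it was 60.0 and 48.5 with the low and 35.3 and 42.7 with the high dose. This sum is of linear signals and consists mostly of Lyz2, the brightest marker. It therefore largely repeats Lyz2 and does not show that the other markers fell. Lyz2, lysozyme, lay at 5.35, 5.42 and 5.72 with the low dose and at 3.90, 4.32 and 5.17 with the high dose, without overlap (-1.04 ± 0.19, adjusted p = 0.0206). It differed by -0.52 on the shared day (95% interval -0.92 to -0.12) and was lower by 0.85 on high-dose arrays 3 to 6 than on 1 and 2. Aif1 (-0.57 ± 0.17, and -0.35) and Ctss, a lysosomal protease (-0.61 ± 0.19, and -0.04), were lower too, but Ctss lost the call with levels raised to the background floor (-0.24). The part of macrophage content in the other differences was not tested.

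Endothelial markers had 3 of 14 higher (Eng, Sox18 and Flt1; 1.28 ± 0.33, 0.91 ± 0.26 and 0.99 ± 0.30), with shared-day differences of 0.30, 0.07 and 0.15 and overlapping sums of 14.4 to 21.4 and 13.1 to 22.3. The share higher was 21.4%, against 13.1% of all genes, and the median of the list, 0.21, turned to -0.11 by quantile normalisation. Of 7 markers of T, B and natural killer cells 3 were higher (42.9%), led by Cd3g, a chain of the T cell receptor complex (3.41 ± 0.72, and 0.05), with Cd3d (0.75 ± 0.24, and 0.18) and Cd4 (1.13 ± 0.37, and 0.01). Of 7 neutrophil markers 2 were higher (28.6%), Elane (4.00 ± 0.81, and -0.05) and Cxcr2 (2.18 ± 0.55, and 0.43). Of 11 red cell markers 3 were higher (27.3%), Ahsp (1.67 ± 0.44, and 0.09), Trim10 (2.03 ± 0.55, and -0.28) and Alas2 (1.51 ± 0.42, and -0.04), while Hbb-b1, a beta globin, did not pass (-0.39 ± 0.40). Cd3g stood at -4.01 to -3.45 on the low-dose arrays of day 2, at -1.84 to -0.88 on the day 1 arrays and at 0.51 to 2.25 on high-dose arrays 3 to 6, in the order of the scan sets. Of 8 genes of testis, seminal vesicle and brain, 4 (50%) were higher (Grm8, Svs3a, Tnp1 and Tssk3), with a median of 1.35 over the 12 arrays and 0.29 on the shared day.

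None of 18 white fat markers and none of 13 fibroblast markers was called. After normexp 2 fibroblast markers were lower, and 1 was by quantile normalisation and in the authors' values. The mean level of the white fat markers ranged from -1.73 to 0.04 on the low-dose and from -1.75 to 0.12 on the high-dose arrays, with overlap, and their summed signal overlapped as well. Adipoq, adiponectin, lay between 1.40 and 3.82 with the low and between 1.12 and 3.71 with the high dose (0.44 ± 0.44), and Ucp1, the uncoupling protein of brown fat, between -0.63 and 3.24 and between -0.54 and 3.59 (0.80 ± 0.70). Both genes thus spread more widely among the rats of a dose than between the dose means.

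In the housekeeping lists, 3 of 38 ribosomal protein genes (7.89%; Rpl15, Rps2 and Rpl19) and 2 of 27 proteasome genes (7.41%; Psma3 and Psmc2) were lower, near the 7.51% of all genes. By quantile normalisation, and with the percentile over probes detected on all arrays, none of either list was lower. Among 34 nuclear genes of oxidative phosphorylation, Ndufa1, Sdhc and Atp5f1a were among those lower, and Ndufa2 was higher (1.09 ± 0.28, and 0 on the shared day). The medians of the ribosomal and proteasome lists were -0.20 and -0.23 over the 12 arrays and -0.11 and 0.06 on the shared day, and that of oxidative phosphorylation was -0.12 and 0.01. Between the high-dose scan sets, 10 ribosomal and 7 proteasome genes were lower on arrays 3 to 6. Of 22 genes of cholesterol synthesis and uptake 3 were lower (13.6%, against 7.51% of all genes): Hmgcs1, which makes the precursor of mevalonate (-0.63 ± 0.17, and -0.34), Fdft1, squalene synthase (-1.09 ± 0.32, and -0.08), and Msmo1 (-0.44 ± 0.14, and -0.28). Of 22 chaperones 9.09% were lower, Hsp90ab1 and Hspa4 (-0.46 ± 0.13, and -0.09), and 4.55% higher, Hspb7 (1.77 ± 0.49, and 0.08). Hspb7 stood at -0.12 to 0.38 on the low-dose arrays of day 2 and at 2.33 to 3.14 on all the others, low-dose arrays 1 and 6 included.

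None of 25 antioxidant genes, 10 NADPH oxidase genes or 14 prostanoid genes was called, nor was Hmox1, haem oxygenase (0.45 ± 0.23, adjusted p = 0.172). The lists changed with the scaling. After normexp 2 antioxidant genes were higher and 3 lower, 2 NADPH oxidase genes were higher and 1 prostanoid gene was lower. Among 19 xenobiotic response genes Cyp1b1 (4.34 ± 0.89, and 0.07) and Ephx1 (1.00 ± 0.29, and -0.09) were higher (10.5%). Cyp1a1, a cytochrome induced through the aryl hydrocarbon receptor, spread from -4.59 to -2.63 with the low and from -6.25 to -0.92 with the high dose (0.11 ± 0.77). Among 22 interferon genes Psmb9, Dhx58 and Gbp5 were higher (13.6%), and those lower (9.09%) included Ifi44 (-0.61 ± 0.18). Of 17 cell cycle genes 3, or 17.6%, were higher (Cdc20, Ccnd1 and Ccnb2). Over all genes 13.1% were higher and 7.51% lower, so the shares of these lists were near those of all genes. Cdc20, an activator of the anaphase complex, lay between 0.86 and 1.89 on the low-dose arrays, at 1.46 and 2.37 on the high-dose arrays of day 1 and between 3.69 and 4.37 on arrays 3 to 6 (1.94 ± 0.44, and 0.07).

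**Figure D5:**
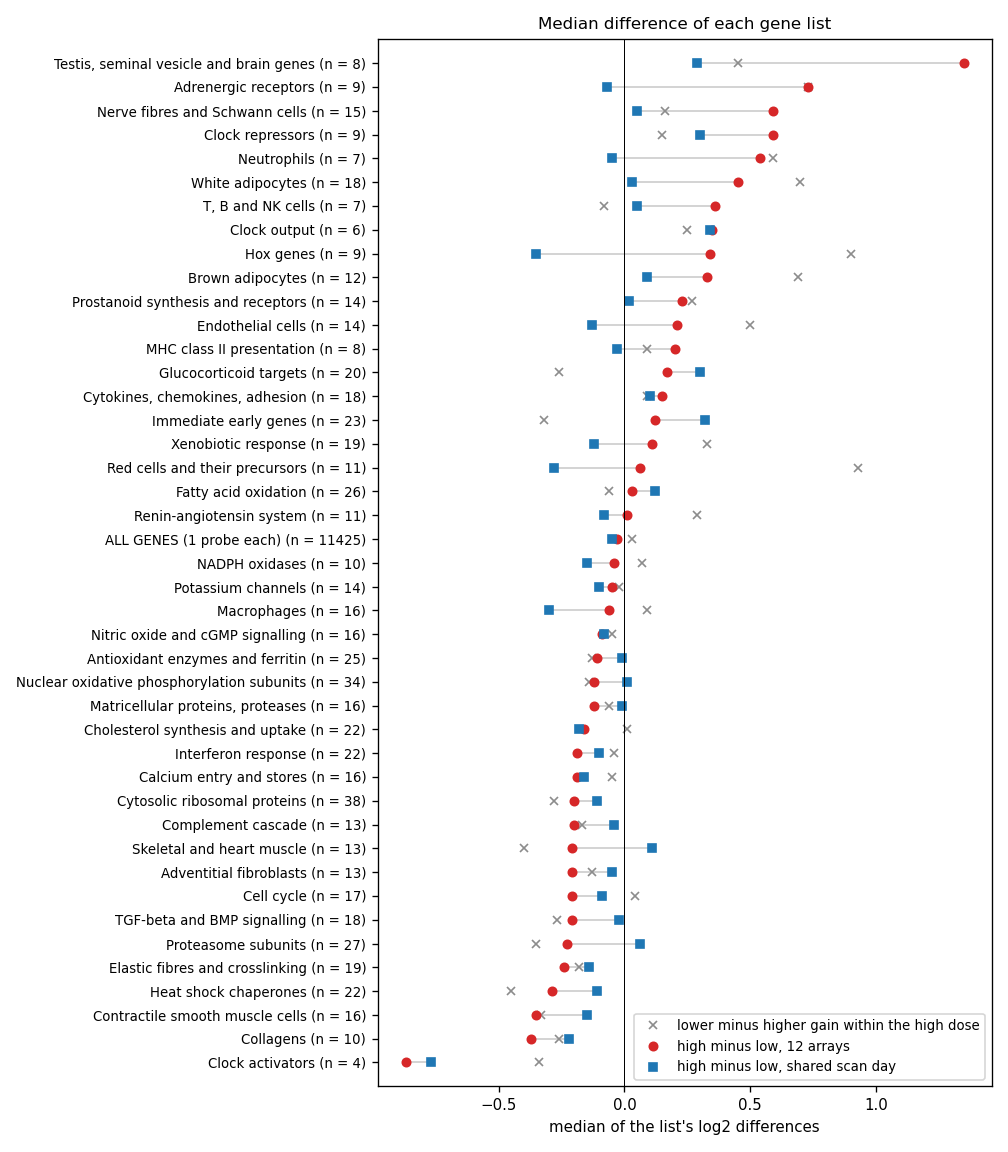
Median log2 difference of each gene list (number of tested genes in brackets), for high minus low dose over the 12 arrays (red circles), for the same on the shared scan day (blue squares) and for high-dose arrays 3 to 6 minus 1 and 2 (grey crosses). Clock activators (-0.87 and -0.77) and clock outputs (0.35 and 0.34) sit at like values in both dose comparisons, while the genes of testis, seminal vesicle and brain go from 1.35 to 0.29.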

How the data were processed

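RNA of 1 thoracic aorta per rat was hybridised to 1-colour (Cy3) Agilent rat arrays. Per the file headers, the authors quantified scans with Agilent Feature Extraction 11.0.1.1, whose processed signal intensity is background-subtracted and detrended within the array; flag columns in the deposited files hold other values (0 or 1). The authors' deposited table of log2 values, made by a method not stated in the available labels and headers, served as an alternative. Groups and replicate numbers come from the sample titles, and scan day and detector voltage from the file headers. The slide was inferred: arrays with an identical scan time were taken to share 1 slide.

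Control spots and outlier flags were left out and spots of a probe averaged (501 of 263544 tested values were missing, which limma drops gene by gene). Levels are log2 signals minus the array's 75th percentile. An array's flag for a probe was set where 0.5 or more of the probe's spots carried it. RefSeq accessions gave a single GRCr8 symbol for 18005 of 30367 probes (15168 symbols); 12362 have no symbol here. The headers name the rn4 build, so probes have no coordinates. A gene is given by its brightest probe. The 12 SXC arrays were fitted with limma 3.58.1 in R 4.3.3 (lmFit, eBayes with trend, 2-sided, Benjamini-Hochberg), with no covariate, with scan day as a block, and with detector voltage level as a term. All p-values and intervals are from these fits, and their precision is limited by the number of arrays. The fit was tested on simulated data with independent noise and no shift between scan days, slides or voltages. That simulation therefore cannot tell how the fit behaves under such shifts. Data were read with the data.table package, version 1.17.8, and figures drawn with matplotlib 3.10.9.

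Named genes are the 12 largest rises and falls among called brightest probes well above background on all arrays of the brighter group (symbols starting LOC or RGD passed over), the 8 and 8 largest of the shared-day rule, the members of lowest p (4 or fewer) in every list holding 3 or more calls, and 19 fixed genes. Further clock genes, Klf2, Fos and Egr1, and members completing a count were named after their values were seen. Some list members are not reported here. Members, lists and rules were chosen with earlier results of these data known. Alternatives tried were normexp background correction (offset 50, on median signals, as the mean was not used here), quantile normalisation, the percentile over probes detected on all arrays, the authors' values, other filters, all 26 arrays, array weights, slide as a random block, the replicate block, higher-voltage arrays alone, and leaving out each array; the fit of high-dose arrays 3 to 6 alone and levels raised to the background floor were added after seeing the data.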

Additional observations from a re-analysis of the deposited data

Results flagged for a closer look

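Of 296 levels tested within a dose (148 genes in 2 groups of 6), 16 had a single array far from the other 5, and chance alone gives about 1 in 20. Low-dose array 2 stood apart for 6 genes, high-dose array 3, which had the fewest probes well above background, for 5, low-dose array 4 for 2, and low-dose array 3 and high-dose arrays 2 and 4 for 1 each. Among clock genes, Bmal1 was at -3.91 on high-dose array 4 (next -1.99) and Clock at -2.97 on low-dose array 2 (next -2.55).

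On high-dose array 3, Rrad was highest at -0.02, while Rgs4 (-0.86), Bsg (-2.16), Efemp1 (-2.74) and Agtr1a (-3.29) were lowest. The background floor of that array was -1.14, so its Bsg, Efemp1 and Agtr1a values were not well above background. On low-dose array 2, Mylk (6.25) and Ltbp3 (0.34) were lowest, and Rtn4rl1 (0.05), Atp5f1a (5.34) and Gbp5 (0.69) were highest. On low-dose array 4, Col6a2 was highest at 3.73 and Fdft1 lowest at 4.06. C2cd5 was highest at 1.99 on low-dose array 3, and Cd300lg lowest at 0.47 on high-dose array 2. The gaps of Mylk and Col6a2 were small in size (0.08 and 0.10), since the other arrays lay close together.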

How the results depend on the processing

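The number of probes called for dose, 4475, was 6854 after normexp, 1479 after quantile normalisation, 1652 in the authors' values, 2243 over probes detected on all 12 arrays, 10564 with array weights and 9235 with high-dose arrays 3 to 6 alone. It was 0 with slide as a random block (correlation 0.35), detector voltage as a term, scan day as a block, the higher-voltage arrays alone, or the replicate block, and 0 to 7686 leaving out 1 array. Calls in the gene lists, 113, were 173, 43, 47, 251 and 247 after normexp, quantile normalisation, in the authors' values, with array weights and with high-dose arrays 3 to 6 alone, 0 under those 5 blocks, and 0 to 196 leaving out 1 array. With voltage as a term and no filter, 1 probe was called. Between the high-dose scan sets (3275), normexp gave 11486 and probes detected on all arrays 1931. Between the low-dose scan days (1327), a comparison added after seeing the data, normexp gave 267, quantile normalisation 318, the authors' values 297 and probes detected on all arrays 358. The cause of these shifts was not tested. The numbers do not pair the rats: same-numbered arrays correlated at -0.42 to 0.30 in their deviations, and none correlated best with its own number.

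Of 124 named genes called, 118 kept the call after normexp, 110 with levels raised to each array's lowest signal well above background (losses include Ctss at -0.24, Tgfb2 at -0.37, Ednra at -0.61, Atp2a3 and Cd4), 51 after quantile normalisation, 50 in the authors' values and 0 with scan day as a block. Signs turned for Nr1d2 (-0.48) and Cd4 (-0.14) after quantile normalisation, for Nr1d2 (-0.32) in the authors' values, and with scan day as a block for Or2a20 (-0.33), Frmpd4 (-0.28), Per1 (-0.11), Kcnj11 (-0.04), Kcnk3 (-0.01), Kcnma1 (-0.17), Npr2 (-0.03), Arrb1 (-0.07), Adra1a (-0.40), Hif3a (-0.20), Nr3c1 (0.02), Ephx1 (-0.09), Trim10 (-0.28), Alas2 (-0.04), Elane (-0.05), Tgfbr2 (-0.08) and Ccnd1 (-0.04).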

Other observations

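The valsartan arrays, which enter no comparison here, gave values beyond those of the high dose for several clock genes. Over the 6 valsartan arrays Bmal1 ran from -5.67 to -3.06, Npas2 from -2.74 to -0.86, Ciart from 1.38 to 1.95 and Per2 from 1.75 to 2.22. The highest SXC array lay at 0.23 for Ciart and 0.78 for Per2, below every valsartan array, while Bmal1 and Npas2 overlapped with high-dose array 4 (-3.91 and -0.88). Nr1d1 ran from -3.88 to -1.60 on the valsartan arrays, over nearly the whole range of both doses. The background floor of valsartan arrays 1 to 6 was -1.64, -2.59, -3.89, -3.98, -2.86 and -3.41. Bmal1 at -5.67 lay under all of these, so how low it reached is not known. The lowest Npas2 and Nr1d1 values (-2.74 and -3.88) lay under the floor of some of these arrays. Junb (4.13 to 6.01) and Nr4a3 (2.89 to 4.15) overlapped with both doses, and Myl9 (2.34 to 3.12) did too. Valsartan was dosed at a later hour than SXC per the labels and scanned at the lower detector voltage, and neither was tested.

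Lists not described above held few calls. Of 13 complement genes 2 were lower (15.4%) and 0 higher (median -0.20, and -0.04 on the shared day). Of 26 genes of fatty acid oxidation 1 was lower (3.85%) and 0 higher (0.03 and 0.12). Of 18 cytokines, chemokines and adhesion molecules 2 were higher (11.1%) and 0 lower (0.15 and 0.10). Of 12 brown fat, 15 nerve and Schwann cell, and 13 skeletal and heart muscle markers, 2 each were higher (16.7, 13.3 and 15.4%) and 0 lower. Over all genes 13.1% were higher and 7.51% lower. The nerve markers had the larger gap between the dose comparisons (0.59 and 0.05), and their summed signal was 22.6 to 31.5 on high-dose arrays 3 to 6 and 10.5 to 16.5 on all other arrays of both doses.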
